A study of Mus musculus with 2 samples.

Results

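The 3p arms of the mouse miRNAs numbered miR-6896 to miR-7094 comprise 201 probes of the 1900 mouse miRNA probes on this array. They were chosen by name alone: every probe called miR-N-3p with N in that range, with or without a letter after the number, dim probes included. RNA of isolated colonic epithelial cells came from C57BL/6 mice 8 weeks of age. The DSS sample (1 array) was from mice given 2.5% dextran sulfate sodium, a chemical used to damage the lining of the colon, in their drinking water for 5 days, and the control sample (1 array) is labelled only as control. All RNA was labelled with the red dye Hy5 and hybridised in 1 colour. The labels do not say how many mice gave RNA to a sample or how the cells were isolated, so each condition is a single measurement. No difference between the conditions has a replicate check, a p-value or a standard error, and with so few arrays the precision is limited.

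A mirtron is a short intron that folds into a hairpin after splicing and enters the miRNA pathway through Dicer without the cut by Drosha that other miRNA precursors need. In 5′-tailed mirtrons only the 3′ end of the hairpin is the 3′ end of the intron, and the extra stretch at the 5′ end is trimmed away. The 3p arm of either kind therefore contains the end of an intron, where a pyrimidine-rich tract is followed by the acceptor dinucleotide AG, while the 5p arm contains the opposite, purine-rich strand of the hairpin. No source used here gives targets or functions of single members, so each is placed by its sequence and by the gene in which its hairpin lies.

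RefSeq entries (build GRCm38.p6) gave the mature sequence of 177 of the 201 members. The following 10 are shown because they were, among members brighter than the members' median, the brightest or those with the largest differences between the arrays, 6 with a positive and 4 with a negative difference. Capitals mark the seed, bases 2 to 8, and the last bases of each line show how the 3p arms end.
miR-7000-3p: cACCCACCugccuguccuccag
miR-6902-3p: cCAUGUGAuguguggguucag
miR-7028-3p: cCUUCUCUucccccucggccag
miR-7045-3p: uCUCCCCCcucccccgcacag
miR-7052-3p: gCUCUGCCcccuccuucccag
miR-7082-3p: gCCCCCCUugcugucugucucc
miR-6959-3p: cUGCACCGaccugcucucccag
miR-6914-3p: uCUGUCCAccucuucccag
miR-7063-3p: uGCUCUCUgccccucuuaag
miR-7036b-3p: uUCCUGGUgggccucggggucc
Of these, miR-7082-3p and miR-7036b-3p do not end in AG. The Mir7000 hairpin (chr2:92387384-92387446, minus strand) shows the arrangement, with the 3p arm in capitals running to the last base and the G-rich 5p strand at the start.
Mir7000: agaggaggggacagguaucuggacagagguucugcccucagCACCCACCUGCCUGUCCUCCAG

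The intron ending stood out in the members as a group. AG was the last dinucleotide of 138 of the 177 members with a sequence (78.0%), against 12 of 176 5p arms of the same numbers (6.82%) and 58 of 532 other mouse 3p entries (10.9%). In 136 members the base before AG was C or U. Pyrimidines made up a median of 72.2% of a member's bases, against 31.8% of a 5p arm and 54.5% of another 3p entry. Cytosine was the most frequent base in members (median 40.9%), and guanine the most frequent in 5p arms (43.7%). Counted from the 3′ end, the last base was G in 78.0% and the base before it A in 80.8% of members. The third base from the end was a pyrimidine in 91.0%, the fourth in only 63.8%, and the fifth again in 90.4%. Lowest in pyrimidines was miR-6902-3p (47.6%), and highest miR-7047-3p (91.3%).

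**Figure D1:**
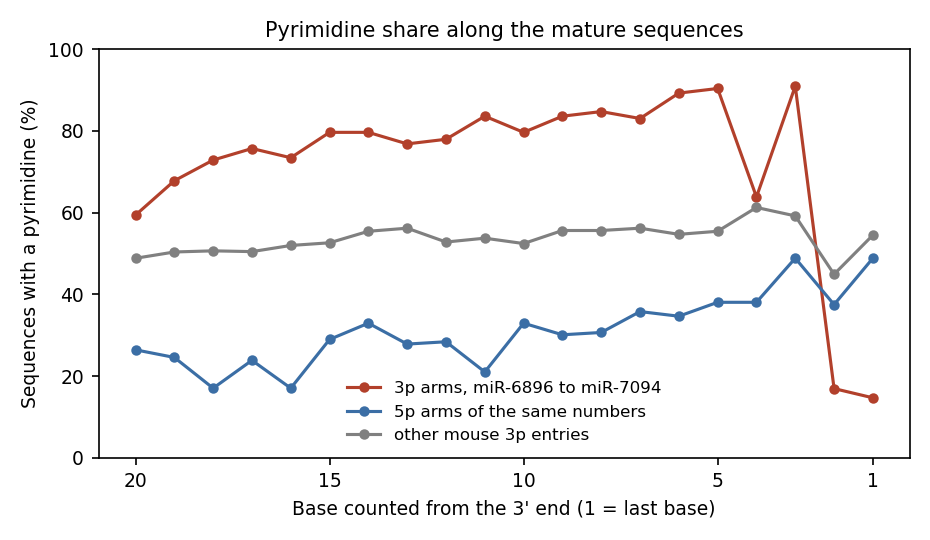
Share of mature sequences with C or U (y axis, percent) at each base counted from the 3′ end (x axis, last base at right) for the 3p arms of miR-6896 to miR-7094 (177 sequences), the 5p arms of the same numbers (176) and other mouse 3p entries (532). The 3p arms stay near or above 70% over most of their length, dip to 63.8% at the fourth base from the end and drop to 16.9% and 14.7% at the last 2 bases.

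The hairpins had the same layout. For 172 members RefSeq holds 174 hairpin entries, with a median length of 66 bases. AG ended 164 of the 174 hairpins, and in 129 of them the 3p arm stopped at the very last base. By contrast only 23 hairpins began with GU, the dinucleotide at the start of an intron, and 19 had both. Of the 174 hairpins, 172 lay within the span of a protein-coding gene, spread over 19 chromosomes. Gene spans were used without exons and without comparing strands, so neither intron and exon nor sense and antisense were told apart here. These hairpin counts were not made for other mouse miRNAs. Genes whose spans hold hairpins of the sequences shown above include Chd4 (Mir7045), a chromatin-remodelling ATPase, and Mapk8ip1 (Mir7000), a scaffold of JNK signalling. Others are Raver1 (Mir7082), an RNA-binding partner of the splicing repressor PTB, and Ap2a2 (Mir7063), a subunit of the clathrin adaptor.

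Most members were measured, but all were dim. A probe was counted as measured when its spot lay above the mean of the blank spots plus 2 SD, with 5% of blanks trimmed at each end, which is 9.06 above the blank mean on the DSS array and 6.98 on the control array (intensity in arbitrary units). The DSS array measured 153 members (76.1%) and the control array also 153. Of all 1899 probes free of a quality flag, the DSS array measured 61.6% and the control array 56.3%. Both arrays measured 145 members (72.1%, against 52.4% of all probes). A further 8 passed the limit on DSS alone, 8 on control alone, and 40 passed it nowhere. Over all 1899 probes these counts were 174, 75 and 655. Among the 5p arms both arrays measured 171 of 200 (85.5%), and among other 3p probes 258 of 589 (43.8%).

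No member reached a spot intensity of 1000 on any array, whereas 15 of the 5p arms did on the DSS array and 21 on the control array. Spot intensities of members ran from 115.1 to 421 on the DSS array and from 87.1 to 443 on the control array. The median member lay 23.9 above the blank mean on the DSS array and 24.1 on the control array. Only 12 of the 145 members measured on both arrays had a spot of 200 or more on the DSS array, and 10 on the control array. The brightness of a probe depends on how well it binds as well as on the amount of RNA, so these values do not rank the miRNAs by abundance.

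Spots that carry no miRNA probe bear on the dim members. Of 174 spots named No Probe, 54 (31.0%) passed the limit on the DSS array, against 17 (9.77%) on the control array. A limit at the upper end of these spots (spot intensity 144.3 on the DSS array and 102.9 on the control array), a choice made after the data were seen, left 101 members measured on both arrays (50.2%, against 37.5% of all probes). It also turned the balance of members measured on a single array to 1 on the DSS array and 38 on the control array. The blank means were 121.8 (DSS) and 92.7 (control), so this limit lay further above the blanks on the DSS array and was harder to pass there. The balance of 1 and 38 was not counted over all probes, so it is not read as a property of the members. Of the spots of Negative Controls 1, 2 and 3, 13 of 16, 2 of 8 and 5 of 8 passed the main limit on the DSS array. On the control array 4, 0 and 8 of them did.

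**Figure D2:**
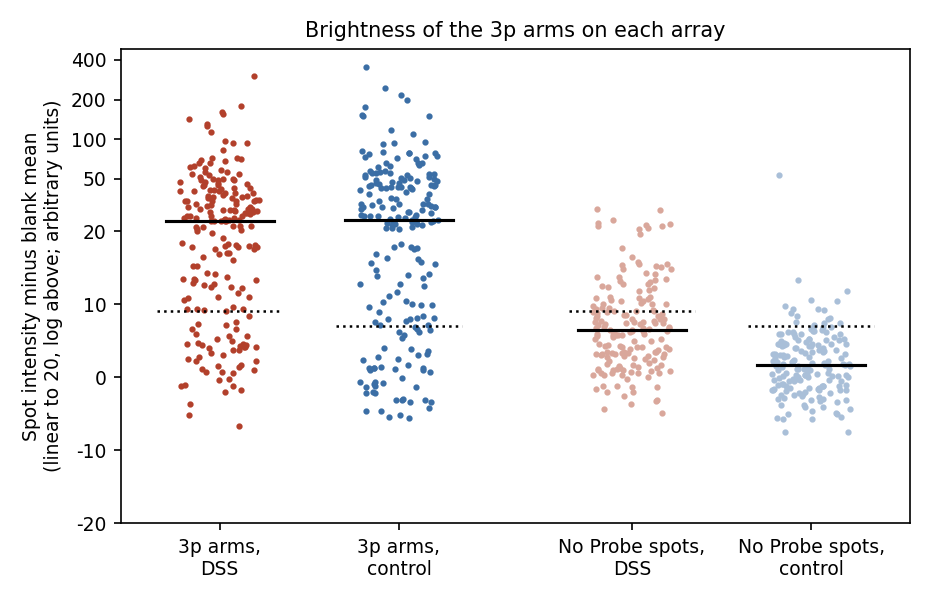
Spot intensity minus the blank mean (y axis, linear up to 20 and logarithmic above, arbitrary units) of the 201 3p arms and of the 174 No Probe spots on the DSS and the control array. Points are spots, solid bars medians and dotted bars the limit for a measured probe; the medians of the 3p arms are 23.9 (DSS) and 24.1 (control), and 54 (DSS) and 17 (control) No Probe spots lie above the limit.

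Among marker miRNAs of the labelled tissue, all 3 of differentiated gut epithelium (miR-192-5p, miR-194-5p, miR-215-5p) were measured on both arrays, and of the 5 miR-200 family miRNAs all 5 on the DSS array and 4 on the control array. Summed intensity above blanks, unscaled and with unmeasured markers included, was 412 (DSS) and 376 (control) for gut epithelium. For the miR-200 family it was 538 and 546. Of 6 leukocyte miRNAs 4 were measured on the DSS array and 3 on the control array, with sums of 161 (DSS) and 51.1 (control). Of these sums miR-150-5p alone gave 80.6 and 13.7. For miR-142a-3p both values (2.59 for DSS and 5.22 for control) fell short of the limit, so their order is not read as a difference. Its partner arm miR-142a-5p reached 19.9 above blanks for DSS, past the limit, but −3.33 for control. The red cell list had 2 of 3 members measured on each array (sum 136 and 85.5 for DSS and control), and the smooth muscle and fibroblast list 5 of 6 (823 and 1027). Since these sums are unscaled, their direction can differ from that of normalised values. As log2 differences after quantile normalisation (DSS minus control, defined below), the 5 measured muscle and fibroblast markers ran from −0.05 to 0.44. Only miR-133a-3p was below 0 among them. The 4 miR-200 family miRNAs measured on both arrays ran from 0.20 to 0.68, and the 3 gut epithelial ones from 0.43 to 0.55. The 3 leukocyte miRNAs measured on both arrays ran from 0.15 to 1.07, the highest being miR-150-5p. The 2 such red cell miRNAs were at 0.19 and 0.73. Fewer cells of a type and less of a miRNA per cell cannot be told apart in such bulk RNA, and the part of other cell types in the differences below was not tested.

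With the offset and quantile normalisation applied, no member differed by 2-fold, or by 1.5-fold, between the arrays. Each difference is the log2 value on the DSS array minus that on the control array, with an offset of 50 added at background correction and the 2 arrays quantile normalised over all mouse miRNA probes. The offset draws the differences of dim probes towards 0, so a count of 0 among members this dim does not show that they did not differ. Of the 145 members measured on both arrays 0 were at least 2-fold higher on the DSS array and 0 at least 2-fold lower, where over all 995 miRNAs measured on both arrays 0.503% were higher and 1.01% lower. At 1.5-fold the counts were again 0 and 0, against 3.22% and 4.22% of all. All miRNAs include spots of up to 42202 on the DSS array and 50221 on the control array. These shares are therefore not matched to the members in brightness. With no scaling 2 members were at least 1.5-fold lower, miR-6959-3p (−0.69) and miR-7036b-3p (−0.66). Member differences ran from −0.47 to 0.49. All miRNAs had a median of −0.003 and other 3p probes one of 0.02. The members' median was 0.02, with 83 members above 0, 61 below and 1 at 0. The sign of this median depends on the scaling: it was −0.11 with median scaling, −0.01 unscaled and −0.98 when scaled to the spike control spots, choices that moved the median of all miRNAs to −0.15, −0.06 and −1.02. Scaling by 1 factor per array shifts every difference alike. With the same offset, the members' median therefore lay 0.05 above that of all miRNAs in each of these settings by construction.

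The SD of the difference over the 145 members was 0.16 before scaling. Blank spots at the same position of both arrays had an SD of 0.12 with 5% trimmed at each end, a measure of spot noise at lower intensity. Of the members 132 (91.0%) differed by no more than 2 such SDs (0.23) before scaling, which does not show that they did not differ. For comparison, the SD over the 5p arms measured on both arrays was 0.44 before scaling and that over all miRNAs 0.41. The offset compresses dim probes more than bright ones, and the 5p probes were brighter, with a median of 83.4 above blanks on the DSS array and 149.5 on the control array among those measured on both. The part of brightness in the gap between these SDs was not tested.

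Split at the median of their mean brightness over both arrays, 46 of the 72 brighter members and 37 of the 73 dimmer ones had a positive normalised difference. Of the 12 members with a spot of 200 or more on the DSS array, 10 were higher there after quantile normalisation and 10 in the authors' deposited values, but only 3 with no scaling. These 12 were picked by their DSS value, which favours a higher count on that array. Over all probes 50 spots exceeded 1000 on the DSS array, against 73 on the control array, and quantile normalisation compares each member with miRNAs of its own rank.

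The largest positive difference belonged to miR-7000-3p (chr2:92387384-92387405, minus strand), from the Mapk8ip1 locus. It lay 159.9 above blanks on the DSS array, against 151 on the control array, a normalised difference of 0.49. That difference was −0.02 with median scaling, −0.89 with scaling to the spike controls and −0.52 after the files' background value was subtracted, with the same offset. With the files' background value subtracted down to a floor it was −2.38. Its sign thus changed with the scaling and with the background correction.

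miR-6902-3p (chr1:93346135-93346155, plus strand) lies within Ppp1r7, which codes for a regulatory subunit of a protein phosphatase. It lay 44.7 above blanks on the DSS array, against 24.6 on the control array. Its difference was 0.38 after quantile normalisation and 1.35 in the authors' deposited values. Of the 10 named members with a positive difference it was the one that stayed positive with median scaling (0.25), and of the 12 other settings only scaling to the spike controls turned it (−0.62).

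miR-7045-3p (chr6:125097066-125097086, plus strand) was the brightest member on both arrays, at 299.5 above blanks on the DSS array and 351 on the control array. Its normalised difference was 0.36, and −0.18 with no scaling. miR-7082-3p, at 178 on the DSS array and 216 on the control array, had 0.33, and −0.19 with no scaling. For both, the raw spot was dimmer on the DSS array while the rank among miRNAs was higher.

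miR-7052-3p, from the locus of the deubiquitinase Josd2, had a brighter raw spot on the DSS array (277.7, against 266.7 on the control array) but a dimmer one once blanks were subtracted. It lay 156 above blanks on the DSS array, against 174 on the control array (normalised difference 0.34, and −0.10 with no scaling). miR-7028-3p lay at 143 on the DSS array and 151 on the control array (0.37, and −0.03 with no scaling). Further bright members were miR-7022-3p (127 on the DSS array and 152 on the control array, difference 0.19) and miR-7003-3p (114 and 117 for DSS and control, 0.30). miR-7003-3p lies within Mybl2, a transcription factor gene of cycling cells. miR-7036a-3p (93.6 on the DSS array and 92.1 on the control array, difference 0.31) and miR-7044-3p (82.2 and 78.6 for DSS and control, 0.30) complete the 8 largest positive differences among bright members.

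Of the 8 largest negative differences among bright members, 3 kept their sign under all 12 other settings. miR-6959-3p (chr15:89305658-89305679, minus strand), within Sbf1, lay 97.1 above blanks on the DSS array, against 198 on the control array. Its normalised difference was −0.32, and the other settings gave −1.66 to −0.21. The same was true of miR-7063-3p (chr7:141620772-141620791, plus strand), at 37.2 on the DSS array and 74.3 on the control array, with −0.29 and a range of −1.39 to −0.08. The third such member was miR-7036b-3p (chr5:34574192-34574213, plus strand), within Add1, which codes for the membrane skeleton protein adducin. It lay at 129.8 on the DSS array and 245 on the control array, with −0.19 and a range of −4.01 to −0.16. All 3 spots were dimmer above blanks on the DSS array than on the control array, yet none passed 1.5-fold after the offset and normalisation.

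miR-6914-3p lay 28.3 above blanks on the DSS array, against 55.4 on the control array, a normalised difference of −0.29. miR-7031-3p, within the gene of the cytokine signalling adaptor Sh2b3, lay at 32.0 on the DSS array and 56.4 on the control array (−0.23). The last 3 of the 8 were miR-6944-3p (−0.15), miR-7012-3p (−0.15) and miR-7083-3p (−0.14), each of which changed sign under at least 1 setting and lay between 27.4 and 28.8 above blanks on the DSS array and between 42.4 and 42.9 on the control array. The lowest difference of any member was that of the dimmer miR-6913-3p, named after its value was seen, which lay 12.3 above blanks on the DSS array, against 42.8 on the control array (−0.47, and −1.31 in the authors' deposited values).

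**Figure D3:**
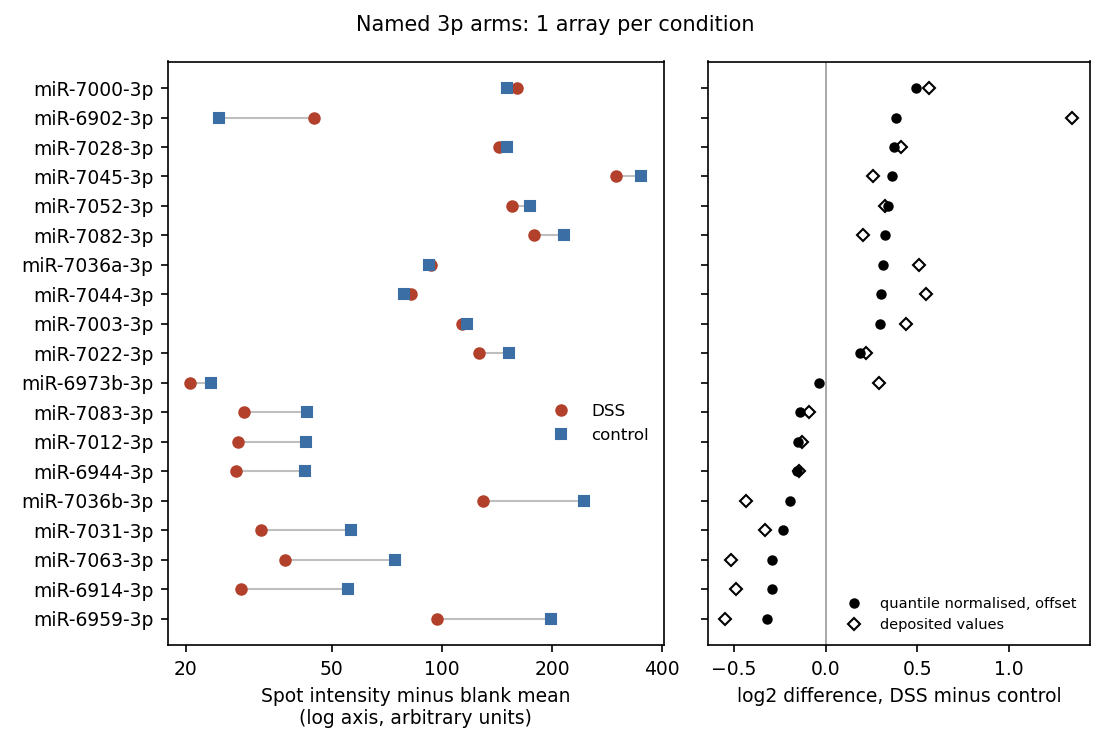
Left, spot intensity minus the blank mean (log axis, arbitrary units) on the DSS (circle) and control (square) array for the 19 named 3p arms measured on both arrays. Right, their log2 difference, DSS minus control, after quantile normalisation with an offset (filled) and in the deposited values (open); miR-6902-3p stands apart at 1.35 in the deposited values, and the members at the bottom are negative on both scales.

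The authors' deposited values, which carry no offset and are scaled by 1 factor per array, gave larger folds. On that scale 14 of the 145 members were at least 2-fold higher on the DSS array (9.66%), against 8.94% of all miRNAs, and 1 was at least 2-fold lower, miR-6913-3p (0.690%, against 4.12%). The members' median was 0.29, against 0.21 for all miRNAs, and 122 of 145 were above 0 (84.1%, against 63.9% of all). Other 3p probes had a higher median of 0.37, with 74.4% above 0. At 1.5-fold 36 members were higher (24.8%, against 25.7% of all) and 1 lower (0.690%, against 9.75%). The 14 were dim on the control array, with at most 25.9 above blanks. Of these, 10 were no brighter there than the mean of the Negative Control 3 spots (13.2). That was the brightest negative control on this array, with means of 4.31 for Negative Control 1 and −3.93 for Negative Control 2. The largest fold was that of miR-6991-3p, picked after the values were seen, with 24.1 above blanks on the DSS array and 9.91 on the control array (1.77). After the offset and quantile normalisation the 14 had differences between 0.03 and 0.38.

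Members measured on a single array have only a lower bound on their fold, and the largest such bound was 1.23-fold. On the DSS array only, the brightest were miR-6924-3p (13.4 above blanks on the DSS array and 5.70 on the control array), miR-6911-3p (13.3 and 6.41 for DSS and control) and miR-6956-3p (13.3 and 2.74). Each was at least 1.05-fold higher on the DSS array. On the control array only, miR-6922-3p was the brightest, at 5.23 on the DSS array and 23.2 on the control array, and was at least 1.23-fold lower on the DSS array. It was followed by miR-6939-3p (4.12 and 16.1 for DSS and control, at least 1.14-fold lower) and miR-6978-3p (5.62 and 15.7, at least 1.13-fold lower). These bounds set the normalised value against the lowest value measured on the other array or the dim probe's own, whichever was higher.

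Each hairpin gives a second reading through its 5p arm. For 200 members the array holds a 5p probe of the same name, and both arms were measured on both arrays for 129. In 15 hairpins only the 3p arm was measured on both arrays, in 42 only the 5p arm and in 14 neither. The median difference of the 129 was 0.02 for the 3p arms and −0.09 for the 5p arms. In 85 of the 129 hairpins the difference of the 3p arm lay above that of the 5p arm. The median of that gap was 0.10, or 0.34 where arrays were scaled by 1 factor each with the same offset, in which case 110 of 129 3p arms lay above. In the authors' deposited values 106 did so, with medians of 0.28 for the 3p arms and −0.23 for the 5p arms. Among all arms measured on both arrays, the median above blanks was 30.3 (DSS) and 34.8 (control) for 3p arms. For 5p arms it was 83.4 and 149.5. The part of brightness in the gap between the arms was not tested.

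Arms of the same hairpin had the same sign in 72 of the 129 hairpins and opposite signs in 55, with an arm at exactly 0 in 2. Both were higher on the DSS array in 31 hairpins and both lower in 41, while in 41 the 3p arm was higher and the 5p arm lower and in 14 the reverse. Across the 129 hairpins, which share 2 arrays and differ in brightness, Spearman's rho between the arms' differences was 0.13 and Pearson's r 0.15. miR-7036a had 0.31 for its 3p and −0.62 for its 5p arm. miR-7063 was lower in both arms, at −0.29 for the 3p and −0.995 for the 5p arm. In miR-6956 the 5p arm, at 232 above blanks on the DSS array and 1238 on the control array, differed by −1.35, whereas the 3p arm passed the limit on the DSS array alone. The 5p arm of miR-6922 differed by −1.06, and its 3p arm passed the limit on the control array alone.

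**Figure D4:**
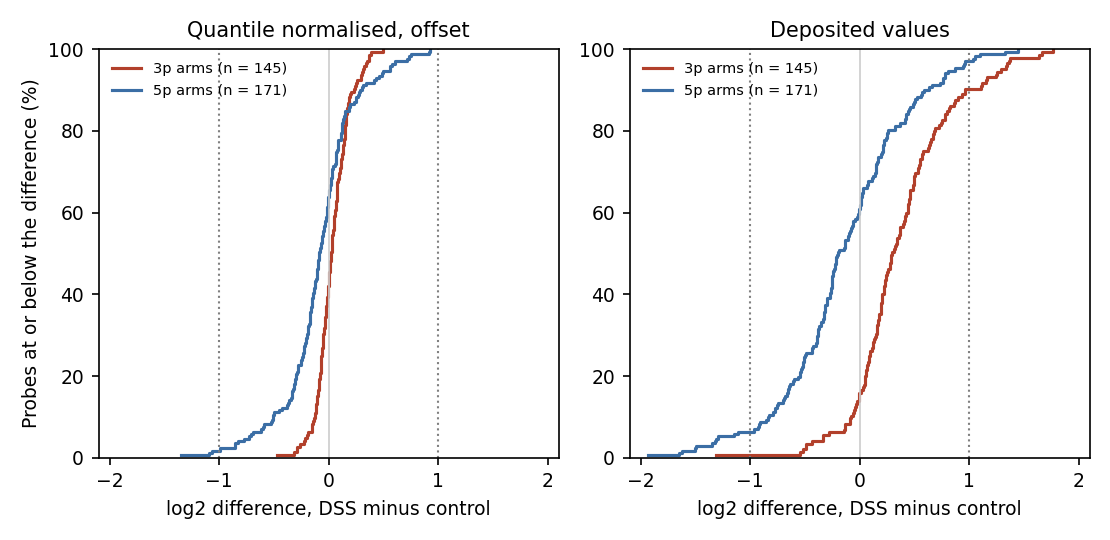
Cumulative share of probes (y axis, percent) at or below a log2 difference, DSS minus control (x axis), for the 145 3p arms and the 171 5p arms measured on both arrays, after quantile normalisation with an offset (left) and in the deposited values (right). Dotted lines mark 2-fold; the 3p curve is steeper and lies to the right of the 5p curve over most of its length, with medians of 0.02 (3p) and −0.09 (5p) on the left.

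**Figure D5:**
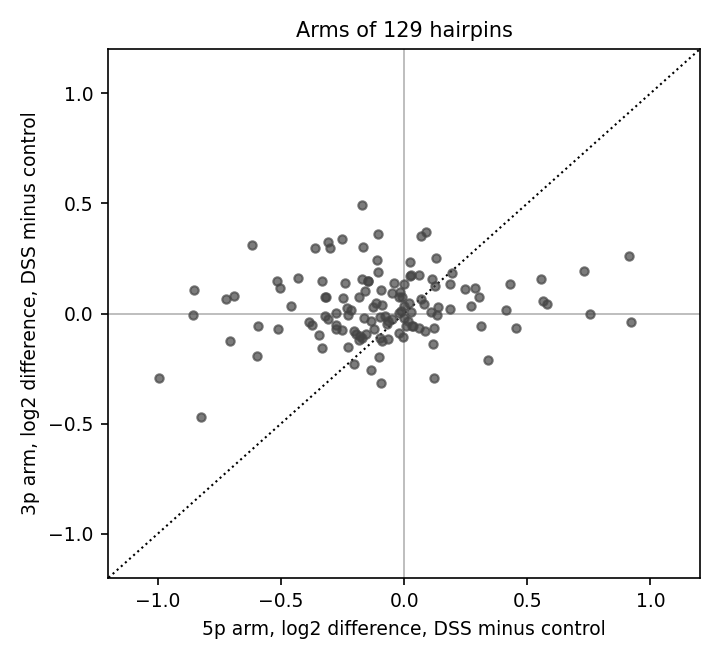
Log2 difference, DSS minus control, of the 3p arm (y axis) against that of the 5p arm (x axis) for the 129 hairpins with both arms measured on both arrays; each point is a hairpin and the dotted line marks equal differences. The 3p arms span −0.47 to 0.49 and the 5p arms −0.995 to 0.92.

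Members seldom share a seed. The 177 sequences carry 169 different seeds, and 15 members fall into 7 groups with a common one. The group of 3, shown because a shared seed would give shared target sites, consists of the following.
miR-7023-3p: uCACCCUGucugcgccccucag
miR-7018-3p: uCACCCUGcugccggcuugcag
miR-7068-3p: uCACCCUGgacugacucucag
Of these only miR-7023-3p was measured, at 69.8 above blanks on the DSS array and 94.7 on the control array, with a difference of 0.02. miR-7063-3p (−0.29) shares its seed with miR-6973b-3p, which lay 20.6 above blanks on the DSS array and 23.5 on the control array (−0.04).
miR-6973b-3p: uGCUCUCUuacccuuccuag
The lettered 3p arms miR-6973a-3p and miR-6973b-3p had differences of −0.02 and −0.04. By contrast miR-7036a-3p and miR-7036b-3p have different seeds, and their differences were 0.31 and −0.19.
miR-7036a-3p: cCGUCCUCauccgcuccucccag
Among the 177 members with a sequence only miR-6932-3p and miR-6966-3p lay within 3 edits of each other, with differences of −0.15 and −0.21.

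In 3 genes the hairpins of 2 members lie within the same span. In Ankrd52, which codes for a regulatory subunit of a protein phosphatase, miR-6914-3p (−0.29) and miR-6915-3p (−0.12) were both lower on the DSS array. In Srebf1, a transcription factor gene of lipid synthesis, miR-6922-3p and miR-6921-3p were both measured on the control array only. In Cmip, miR-7077-3p was at −0.06 and miR-7078-3p was measured on neither array.

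Measured members were richer in G and C than the others. Split by G+C content into 3 equal classes, 30 of the 59 members lowest in G+C were measured on both arrays (50.8%), against 49 of 59 in the middle class (83.1%) and 50 of 59 in the highest (84.7%). The AG ending did not go with such a gap: 100 of 138 members ending in AG were measured on both arrays (72.5%), against 29 of 39 of the others (74.4%). The median difference was 0.03 for those ending in AG and 0.01 for the others. Across the 129 measured members with a sequence, Spearman's rho of the difference was 0.19 with G+C content and −0.02 with pyrimidine content, values that share probe brightness and 1 pair of arrays.

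Other mouse miRNAs known as mirtrons, miR-877, miR-1224 and miR-702, were measured in both arms on both arrays. Their 3p arms differed by 0.13 for miR-877-3p, −0.06 for miR-1224-3p and 0.22 for miR-702-3p, and their 5p arms by −0.01 for miR-877-5p, −0.53 for miR-1224-5p and −0.27 for miR-702-5p. In each of the 3 hairpins the difference of the 3p arm lay above that of the 5p arm, and none of the 6 arms reached 1.5-fold after the offset and quantile normalisation. In the authors' deposited values miR-1224-5p, at 148 above blanks on the DSS array and 386 on the control array, did so (−0.90).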

How the data were processed

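Spot tables from 2 arrays (DSS, control; 1 array each) were analysed. Per the file headers, the deposited spot and background intensities combine scans at 3 gains. Scanner software: not given in the sources used here. In intensity units, the authors' deposited value table holds intensities equal to the spot minus the trimmed blank mean times a factor per array (0.787 for DSS, 0.563 for control), with unmeasured probes empty.

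Spot intensities were corrected with normexp in limma 3.58.1 (R 4.3.3; offset 50, all 3200 spots), log2 transformed and quantile normalised over 1900 mouse miRNA probes. The probe miR-3081-3p, with a quality flag, was then left out. No local background was subtracted, since for members measured on both arrays the files' background value was a median of 84.4% (DSS) and 90.5% (control) of the spot.

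With 1 array per condition no test was made. The procedure was tested on simulated data. Sequences, coordinates and gene spans came from RefSeq tables (GRCm38.p6), matched by miRNA name. Members and lists were chosen with earlier results of these data known. Members were named as follows: any of 2-fold or more, the 8 largest differences each way among members brighter than the members' median, the 8 brightest per array, the 3 brightest measured on each array alone, other arms of these hairpins and members sharing their seed or a probe name. Alternatives varied scaling, background correction, values, detection limit and fold threshold.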

Additional observations from a re-analysis of the deposited data

How the results depend on the processing

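The counts of measured members stayed within 1.5-fold of 153 (DSS), 153 (control) and 145 (both) under each of the 5 other detection limits. No member passed 2-fold with median, 75th percentile or cyclic loess scaling, with no scaling or background correction, or with other filters on dim probes. Counts of members at least 2-fold higher were 3 with subtraction of the blank mean, 26 when the files' background value was subtracted with a floor and 14 in the authors' deposited values. Counts at least 2-fold lower were 65 with scaling to the spike control spots, which lowers every difference, 1 with offset 0, 2 with subtraction of the blank mean, 31 when the files' background value was subtracted with a floor, 1 with that subtraction and offset 50 (added after seeing the data) and 1 in the authors' deposited values. Without an offset, small intensities give larger folds by construction. The members' median of 0.02 moved to 0.33 with 75th percentile scaling over miRNAs measured on both arrays, to −0.98 with scaling to the spike controls and to 0.29 in the authors' deposited values, where all miRNAs had medians of 0.28, −1.02 and 0.21. Of 10 named members with a positive difference, 1 stayed positive with median scaling, 4 unscaled and 0 when scaled to the spike controls. Of 9 with a negative one 9, 8 and 9 stayed negative under these settings, each of which also lowers the median of all miRNAs. With 75th percentile scaling over miRNAs measured on both arrays, which raises that median, 10 of 10 stayed positive and 4 of 9 negative. With the files' background value subtracted, 5 of 10 and 5 of 9 kept their sign. No paired analysis was possible because each condition has 1 array. Most members lie close to the blanks, which limits how well their folds are known.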

Other observations

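The background value given in the files for each spot exceeded the spot intensity itself in 32 of the 201 members on the DSS array and in 30 on the control array. After its subtraction with an offset of 50, miR-7036b-3p differed by −1.19, miR-6902-3p by 0.70 and miR-7045-3p by −0.64.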
